A study of Mus musculus and Rattus norvegicus with 24 samples.

Results

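Cell division and DNA replication genes were taken by symbol from the count table: every gene named as an A, B, D or E cyclin, a cyclin-dependent kinase (Cdk), an Mcm or Orc replication protein, a centromere protein (Cenp), an Aurora, Bub or Polo-like (Plk) protein, an anaphase-promoting complex subunit (Anapc) or an Smc protein, plus Top2a, Pcna and Mki67. The rule found 76 of the 9595 listed genes. Of these, 6 were set apart as caught by the letters of their name alone (Aurkaip1, Cdk2ap1, Cdk2ap2, Cdk5rap1, Cdk5rap3 and Mcm3ap). They code for proteins of other functions or for partners of the named ones. The study profiled single cells labelled as cardiomyocytes, the contracting cells of the heart, in 3 groups of 8 cells. Cultured cells were derived from mouse embryonic stem cells carrying Isl1-Cre, Rosa-RFP and aMHC-GFP and stayed in a dish for 30 days. Transplanted cells had the identical genotype and were retrieved after 30 days in the heart of a neonatal rat. Adult cells were wild-type (WT) rat ventricular cardiomyocytes, isolated from adult heart tissue. Isl1-Cre is driven from a gene of cardiac progenitors and aMHC-GFP from a cardiomyocyte promoter, and both groups of mouse cells carry all 3 alleles. The labels name no animal, host or culture dish, so each group counted as 1 sample, letters only name cells, and no test between groups was possible.

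In a dividing cell, D cyclins with Cdk4 and Cdk6 carry the cell through G1, the Orc complex and the Mcm ring license origins of replication, and cyclin B1 with Cdk1 drives entry into mitosis. The centromere proteins and the Bub checkpoint then hold the chromosomes until the anaphase-promoting complex, a ubiquitin ligase, tags cyclin B and securin for destruction. Fetal heart muscle cells divide, and most mammalian cardiomyocytes leave the cell cycle soon after birth. Many late cell cycle genes are repressed in resting cells by the DREAM complex, which acts through CHR elements (TTTGAA), and are switched on in dividing cells with the help of NF-Y at CCAAT boxes, while E2F factors act on genes of replication.

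Promoter sequences of 4 members are shown as examples chosen by their counts. Top2a, Ccnb1 and Mki67 had counts in cultured cells and none in the other groups, and Anapc13 had counts in all 3. Each sequence was picked with those counts known. Each is the 250 bases before the RefSeq gene start (build GRCm38.p6), 5′ to 3′ on the gene's strand, with CCAAT and TTTGAA on either strand in capitals (ATTGG and TTCAAA on the reverse strand).
Top2a, chr11:99024190-99024439, minus strand: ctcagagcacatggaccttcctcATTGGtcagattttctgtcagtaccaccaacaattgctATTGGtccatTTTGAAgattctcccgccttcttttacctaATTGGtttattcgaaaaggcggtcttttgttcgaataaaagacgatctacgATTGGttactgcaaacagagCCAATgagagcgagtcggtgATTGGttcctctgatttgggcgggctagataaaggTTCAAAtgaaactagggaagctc
Ccnb1, chr13:100786487-100786736, minus strand: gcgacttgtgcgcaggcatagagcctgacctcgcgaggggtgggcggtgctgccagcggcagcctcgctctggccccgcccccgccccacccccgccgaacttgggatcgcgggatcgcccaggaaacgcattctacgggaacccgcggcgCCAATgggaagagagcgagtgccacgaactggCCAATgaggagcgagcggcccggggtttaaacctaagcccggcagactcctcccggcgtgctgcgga
Mki67, chr7:135716380-135716629, minus strand: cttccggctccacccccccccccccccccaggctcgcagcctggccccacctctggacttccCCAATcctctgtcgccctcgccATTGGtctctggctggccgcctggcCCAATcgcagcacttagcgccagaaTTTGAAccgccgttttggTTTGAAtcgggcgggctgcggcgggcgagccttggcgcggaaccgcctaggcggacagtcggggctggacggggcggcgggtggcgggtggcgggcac
Anapc13, chr9:102626046-102626295, plus strand: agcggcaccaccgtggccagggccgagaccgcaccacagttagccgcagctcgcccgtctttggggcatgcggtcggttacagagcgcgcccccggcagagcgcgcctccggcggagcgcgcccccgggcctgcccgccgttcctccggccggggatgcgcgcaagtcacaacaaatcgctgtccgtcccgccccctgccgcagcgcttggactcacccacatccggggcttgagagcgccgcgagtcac
Top2a holds 6 CCAAT and 2 TTTGAA matches, Mki67 holds 3 and 2, Ccnb1 holds 2 CCAAT and no TTTGAA, and Anapc13 holds neither. The RefSeq table gave 77 such windows for 66 of the 76 members. CCAAT was in 39 of them (50.6%), against 33.9% of the 32851 windows of all genes. TTTGAA was in 13 (16.9%), against 16.0% of all windows. One of the E2F-type strings TTTCCCGC, TTTGGCGC, TTTCGCGC or TTTGCCGC was in 6 (7.79%), against 1.86%, and those 6 belonged to Cdk1, Cdk2, Cenpb, Cenpm, Mcm7 and Orc3. Both strands were searched, each string was counted on its own so that 1 stretch can count for more than 1 string, and a match describes the letters and not a factor's binding. Whether these matches bear on the counts was not tested.

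The counts are whole reads per gene without molecular identifiers. Totals ran from 16099 to 60789 per cultured cell, from 88796 to 344224 per transplanted cell and from 108546 to 223744 per adult cell. Levels are therefore given in CPM, the counts scaled to a group total of 1000000, and a group at 0 counts is held to a floor of 3 counts, which is 14.6 CPM in cultured, 2.30 CPM in transplanted and 2.36 CPM in adult cells. Intervals are 95% and cover counting error only. The mouse build mm10 is the one named for the rat cells too, so rat origin and adult stage cannot be told apart. The share of counts in 14 cardiomyocyte markers was 13.3 to 21.4% among transplanted cells, and among adult cells it was 14.6 to 18.1%. In culture it was 2.79, 4.74, 17.6, 11.7, 8.68, 0.465, 0.0883 and 0.00837% in cells A to H. Cultured cells F, G and H had 0 counts of Ttn, Myh6 and Tnnt2, which goes against their label. Another marker of the 14, Myl7, had 78, 20 and 1 counts in them, so not every marker was absent. Several results that rest on these cells are also given without them. Summed levels by role and values of listed genes outside the 76 are not given with the 3 left out together.

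Members were found widely in the cultured group and rarely elsewhere. Of the 76, 67 had a count in at least 1 cultured cell (88.2%), 18 in a transplanted cell (23.7%) and 21 in an adult cell (27.6%). The same shares over all listed genes were 76.2, 32.6 and 38.1%. Counts were present in cultured cells and in neither other group for 46 members (60.5%), as for 43.4% of all listed genes. Another 6 had counts in all 3 groups (7.89%, all listed genes 15.8%), namely Anapc11, Anapc13, Anapc16, Ccnd2, Cdk5rap3 and Smc5, and the centromere gene Cenpv had none in any cell. Cdk11b and Cdk5 had counts in transplanted cells alone and Cdk16 and Cenpj in adult cells alone. A cultured cell held a median of 16.5 members (3 to 20), a transplanted cell 4.5 (3 to 8) and an adult cell 3.5 (2 to 8). With every cell thinned to 16099 counts the medians were 15, 4 and 2 members. As a share of the genes found in the same thinned cell, members made up a median of 0.713% in cultured, 0.659% in transplanted and 0.299% in adult cells. Most of these genes were seen in few cells: 42 of the 67 in the cultured group came from 1 cell (62.7%), as did 53.1% of all genes found there. Without cells F, G and H, 54 members had a count in cultured cells. The 13 with all their cultured counts in those cells were Anapc11, Bub1, Ccna2, Cdk14, Cdk4, Cdk5rap3, Cenpm, Cenpq, Cenpw, Mcm2, Mcm7, Plk2 and Smc4.

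**Figure D1:**
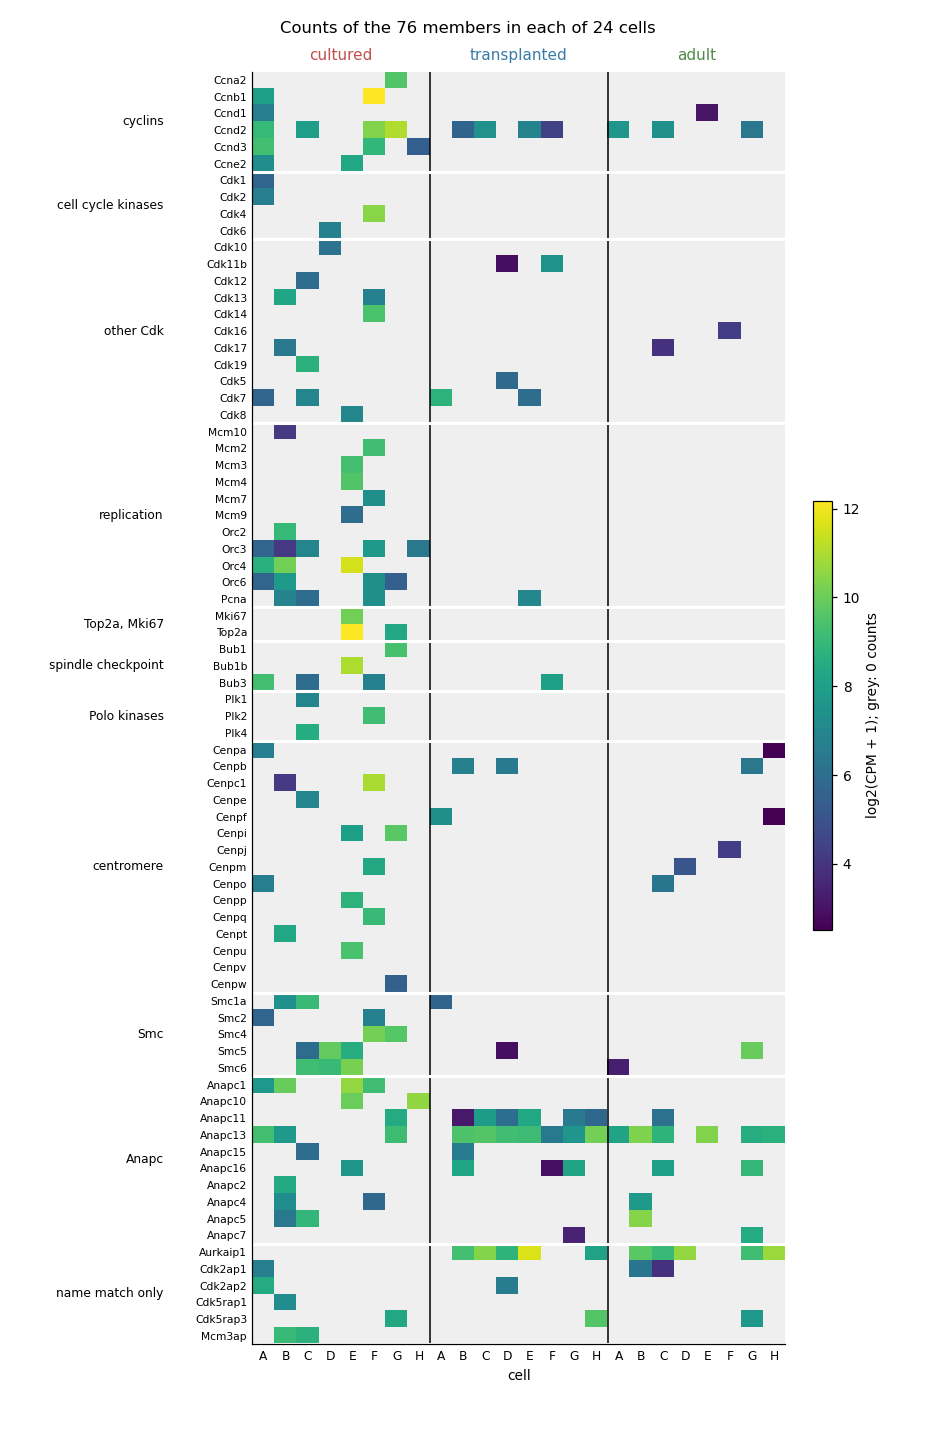
Level of each of the 76 members (rows, grouped by role) in each of 24 cells (columns, letters name cells), as log2(CPM + 1) of the cell's own total, with grey for 0 counts. Cyclins, kinases, replication and spindle genes fill the cultured columns with scattered cells, while Anapc13 and Aurkaip1 run across the transplanted and adult columns.

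Members took 0.627% of the counts in cultured cells (95% interval 0.594 to 0.662), 0.196% in transplanted cells (0.188 to 0.203) and 0.174% in adult cells (0.167 to 0.181). The cultured cells spread from 0.165% in cell D to 1.83% in cell E, with F at 1.54%, G at 0.675% and a median of 0.487%. The transplanted cells ran from 0.0548 to 0.448% and the adult cells from 0.00369 to 0.380%, so cultured cells D and H, at 0.165 and 0.167%, lie among both. Without cells F, G and H the cultured share was 0.577%. In the other 2 groups the share rested on Aurkaip1 and Anapc13, which held 70.3% of the member counts of transplanted and 67.6% of those of adult cells. Without that pair, members took 0.0580% and 0.0564% there. The cultured share without its own leading pair, Orc4 and Anapc1, was 0.518%.

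**Figure D2:**
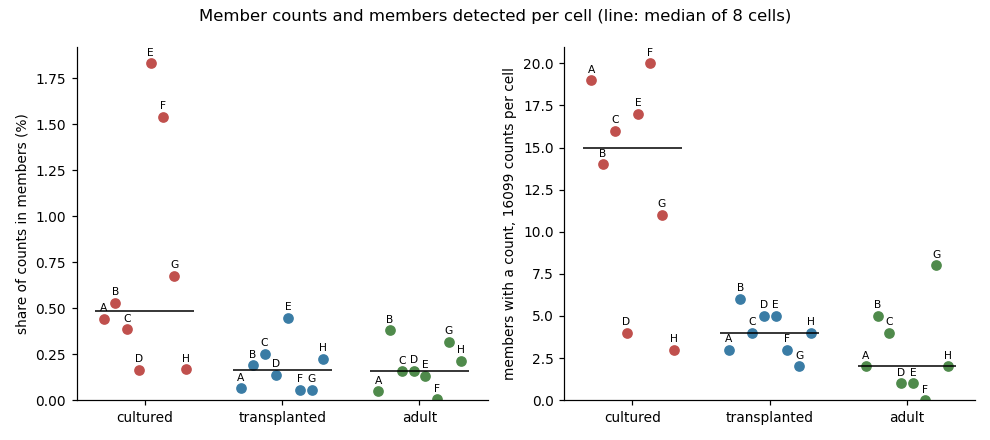
Left, share of a cell's counts in the 76 members, in percent; right, number of members with a count after each cell was thinned to 16099 counts. Points are cells with their letters and lines are medians of 8 cells; cultured cells E and F lie highest on the left, and cultured D and H lie with the other groups in both panels.

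Cyclins and their kinases come first in the cycle. The 6 cyclins summed to 1091 CPM in cultured, 35.3 CPM in transplanted and 63.7 CPM in adult cells. Of the 225 cultured cyclin counts, 119, 64 and 1 were in cells F, G and H. Ccnd2 (cyclin D2, chr6:127125162-127152193, mm10) carried nearly all of the counts outside culture. Its counts were 10, 4, 24 and 47 in cultured cells A, C, F and G, 6, 15, 22 and 3 in transplanted cells B, C, E and F, and 42, 24 and 14 in adult cells A, C and G, with 0 in all others. In group sums it stood at 412 CPM in cultured cells (329 to 510), 35.3 in transplanted (25.8 to 47.1) and 62.9 in adult cells (49.9 to 78.3). That was 11.7-fold lower in transplanted than in cultured cells (8.06 to 17.1) and 6.55-fold lower in adult cells (4.77 to 9.01). Every group thus had cells with and cells without Ccnd2, so the groups overlap at 0 counts. Among cells with a count, the lowest in culture was C at 241 CPM of its own total, on 4 counts. Transplanted cells reached 169 in C and adult cells 188 in A. Cultured cells at 0 had floors of 49.4 to 186 CPM on that scale. The share of all genes with such a gap was not computed, and cultured cells are shallower, so nothing is drawn from the gap. Without cultured G the folds were 5.86 and 3.29, and without F, G and H they were 2.81 and 1.58, the latter under 2-fold. Without transplanted E it was 19.0-fold, and without adult A the second was 11.4-fold.

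Ccnb1 (cyclin B1, chr13:100778650-100786570), the mitotic cyclin, had 86 counts in cultured cell F, 5 in A and none in any other cell. Its 441 CPM in culture was at least 192-fold above the transplanted floor, at least 11.6-fold without cell F, and at least 15.4-fold without F, G and H. Ccna2, the cyclin of S phase and G2, had its 17 counts in cultured G. Ccne2, which acts at the start of S phase, had 3 in A and 5 in E. Ccnd3, another G1 cyclin, had 12, 9 and 1 counts in cultured A, F and H, at least 46.3-fold above the transplanted floor, 23.3-fold without A, 30.1-fold without F and 36.9-fold without F, G and H. Ccnd1, the D cyclin best known from growing cells, had 2 counts in cultured A and 1 in adult E. The cell cycle kinases Cdk1, Cdk2, Cdk4 and Cdk6 had 1, 2, 26 and 3 counts, each in a single cultured cell, and none in the other groups. Cdk4, the partner of the D cyclins, had all 26 in cell F, which also held Ccnb1, Ccnd2 and Ccnd3.

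The other Cdk genes, many of which act on transcription, were split across groups. Cdk7, the kinase that activates other Cdks and is part of TFIIH, had 1 and 2 counts in cultured A and C and 61 and 12 in transplanted A and E, with none in adult cells. It was 3.85-fold higher in transplanted than cultured cells (1.27 to 19.1), 1.41-fold lower without transplanted A, and 10.6-fold higher without cultured C. Cdk11b had 27 counts in transplanted F and 1 in D, and Cdk5, a kinase of neurons and other resting cells, had 9 in transplanted D. Cdk13, which pairs with cyclin K, had 18 and 2 counts in cultured B and F, and Cdk14 had 13 in F. The rest were in 1 cell each: Cdk8 (2 counts, cultured E), Cdk10 (2, cultured D), Cdk12 (1, cultured C), Cdk19 (7, cultured C) and Cdk16 (2, adult F), except Cdk17, with 5 in cultured B and 2 in adult C.

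Replication genes were counted almost entirely in culture. All 11 had counts in cultured cells, 1 of them in transplanted cells and none in adult cells. Over all listed genes, 76.2, 32.6 and 38.1% had a count in these groups. Orc4 (chr2:48902824-48950277), a subunit of the origin recognition complex, had 8, 68 and 49 counts in cultured A, B and E and 0 in the other 21 cells. Its 606 CPM (505 to 722) lay at least 263-fold above the transplanted floor and at least 257-fold above the adult one. Without cell B the bound against transplanted cells was 170.3-fold and without E it was 174-fold. Orc2 had its 31 counts in cell B, and Orc6 had 1, 13, 3 and 1 in cells A, B, F and G. Orc3 was seen in the most cultured cells of any member, with 1, 1, 2, 4 and 2 counts in A, B, C, F and H. The Mcm helicase subunits were each in 1 cultured cell: Mcm3 and Mcm4 with 10 and 12 counts in E, Mcm2 and Mcm7 with 11 and 3 in F, and the related Mcm9 and Mcm10 with 1 each in E and B. Pcna, the sliding clamp of the replication fork, was the member of this role found outside culture, with 25 counts in transplanted E beside 7, 1 and 3 in cultured B, C and F. It was 2.78-fold lower in transplanted than in cultured cells (1.23 to 5.86), 1.43-fold lower without cultured B, and at least 19.7-fold lower without transplanted E. The adult cells had no Pcna count.

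Top2a (chr11:98992943-99024189), which untangles DNA before mitosis, had 74 counts in cultured E, 7 in G and none in the other 22 cells. Its 393 CPM (312 to 488) was at least 171-fold above the transplanted floor, and at least 16.0-fold without cell E. Mki67 (chr7:135689784-135716361), the source of the Ki-67 protein of cycling cells, had its 18 counts in cell E. It was at least 37.9-fold above the transplanted floor, and without E no count was left. For both genes the 8 transplanted and 8 adult cells were all at 0, with floors of 2.30 and 2.36 CPM in the group sums.

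The spindle checkpoint had counts in 5 cultured cells and in 1 transplanted cell. Bub1b (BubR1) had 33 counts in cultured E, and Bub1 had 15 in cultured G. Bub3, which binds both, had 12, 1 and 2 counts in cultured A, C and F and 39 in transplanted F. It was 2.43-fold lower in transplanted cells (1.24 to 4.51), and 1.86-fold higher without cultured A. Leaving out transplanted F gave a bound of 27.9-fold lower. Among the Polo-like kinases Plk1 and Plk4 had 2 and 6 counts in cultured C, and Plk2, a stress-responsive kinase, had 11 in F.

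Genes named as centromere proteins had counts in 6 cultured, 3 transplanted and 5 adult cells. Cenpj is kept in this role by its name, and adult F enters through Cenpj alone. In culture 11 of 15 had counts, near the 76.2% of all listed genes with a count there. Cenpc1, which anchors the kinetochore to centromeric chromatin, had 37 in cell F and 1 in B, Cenpi had 4 in E and 19 in G, and Cenpt had 19 in B. Cenpu, Cenpp and Cenpq, further parts of the inner kinetochore, had 11 and 7 counts in E and 10 in F. Outside culture, Cenpb, Cenpf and Cenpj had counts and none in culture, while Cenpo, Cenpm and Cenpa had counts in both. Cenpb, a DNA-binding centromere protein, had 13 and 14 counts in transplanted B and D and 14 in adult G, and 0 in culture, where 14.6 CPM is the floor and its 20.7 CPM in transplanted cells is at least 1.42-fold higher, with no bound left without B or D. Cenpf, a kinetochore protein of late G2, had 23 counts in transplanted A and 1 in adult H. Cenpo had 11 in adult C and 2 in cultured A, and Cenpm had 5 in adult D and 6 in cultured F. Cenpa, the centromeric histone, had 2 in cultured A and 1 in adult H. Cenpe, a kinetochore motor, had 2 in cultured C, Cenpw had 1 in cultured G and Cenpj, a centriole protein, had 2 in adult F.

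Smc proteins form the rings of cohesin, condensin and the Smc5/6 complex. Smc4, a condensin subunit, had 21 and 18 counts in cultured F and G and none elsewhere, at least 82.1-fold above the transplanted floor, 41.6-fold without F and 49.7-fold without G. Without F, G and H no Smc4 count was left in any group. Smc2, its partner, had 1 and 2 counts in cultured A and F. Smc6 had 10, 15 and 19 in cultured C, D and E and 2 in adult A. Smc5, its partner in DNA repair, had 1, 26 and 6 in cultured C, D and E, 1 in transplanted D and 168 in adult G. Smc5 and Smc6 were thus counted in the same 3 cultured cells. Against cultured cells Smc5 was 209-fold lower in transplanted cells (34.9 to 8483) and 1.21-fold lower in adult cells (0.808 to 1.77, as the fold lower), and without adult G the adult group had no count. Without cultured D the first was 51.2-fold and the second turned to 3.37-fold higher. Smc1a, of cohesin, had 10 and 9 in cultured B and C and 7 in transplanted A.

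Subunits of the anaphase-promoting complex were the role with the closest sums, 1193 CPM in cultured, 755 in transplanted and 784 in adult cells, but on different subunits. Anapc1, the largest scaffold subunit, had 4, 59, 25 and 11 counts in cultured A, B, E and F and none elsewhere, at least 209-fold above the transplanted floor and 119-fold without B. Anapc10, a substrate-binding subunit, had 16 and 37 in cultured E and H and none elsewhere, and Anapc2, the cullin subunit, had 21 in B. Anapc13 (chr9:102626296-102634425), a small stabilising subunit, went the other way. Its counts were 12, 13 and 13 in cultured A, B and G. They were 89, 69, 94, 110, 13, 19 and 392 in transplanted B to H, and 64, 150, 64, 185, 64 and 88 in adult A, B, C, E, G and H. Counts were thus in 3 of 8 cultured, 7 of 8 transplanted and 6 of 8 adult cells, more cells than for any other member. In sums Anapc13 stood at 184 CPM in cultured (130.4 to 253), 603 in transplanted (562 to 647) and 484 in adult cells (446 to 523). It was 3.27-fold higher in transplanted (2.36 to 4.66) and 2.62-fold higher in adult cells (1.89 to 3.74), and leaving out any 1 cell moved neither by over 1.5 times. Without cultured F, G and H the folds were 3.41 and 2.73.

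Anapc11, the RING subunit that works with Anapc2, had 8 counts in cultured G, 1, 20, 10, 60, 9 and 18 in transplanted B, C, D, E, G and H, and 10 in adult C. It was 2.33-fold higher in transplanted than in cultured cells (1.15 to 5.53), 1.35-fold without transplanted E, at least 5.54-fold without cultured G and at least 4.26-fold without cultured F, G and H. It was 11.5-fold lower in adult than in transplanted cells (6.05 to 24.6), 6.66-fold without transplanted E and at least 34.0-fold without adult C. Anapc16 had 3 counts in cultured E, 37, 1 and 29 in transplanted B, F and G and 37 and 85 in adult C and G. Anapc15 had 1 count in cultured C and 12 in transplanted B. Among further subunits, Anapc5, Anapc4 and Anapc7 had 165 counts in adult B, 25 in adult B and 60 in adult G, each in 1 adult cell. Anapc5 also had 5 and 8 counts in cultured B and C, and Anapc4 9 and 1 in cultured B and F. Without adult B or adult G, respectively, none of the 3 had an adult count.

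The genes caught by name alone were led by Aurkaip1 (chr4:155831272-155833130), whose product binds Aurora A and is also a protein of the mitochondrial ribosome. It had 0 counts in all 8 cultured cells, 77, 120, 69, 647 and 94 in transplanted B, C, D, E and H, and 100, 76, 241, 103 and 360 in adult B, C, D, G and H. At 773 CPM in transplanted (726 to 822) and 692 in adult cells (647 to 739) it was at least 53.1-fold and 47.6-fold above the cultured floor. Without transplanted E the first was at least 22.3-fold, and without cultured F, G and H they were at least 36.4-fold and 32.6-fold. Between adult and transplanted cells it differed 1.12-fold (1.02 to 1.22), lower in adult, and was 2.13-fold higher in adult without transplanted E. On a scale per kilobase of exon, Aurkaip1 and Anapc13 stood at 438 and 254 CPM per kb in transplanted cells. Cdk5rap3 had 7 counts in cultured G, 265 in transplanted H and 35 in adult G. Mcm3ap, an mRNA export factor, had 32 and 7 in cultured B and C and none elsewhere. Cdk5rap1 had 9 in cultured B, Cdk2ap2 had 7 in cultured A and 15 in transplanted D, and Cdk2ap1 had 2 in cultured A beside its 9 and 2 in adult B and C.

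**Figure D3:**
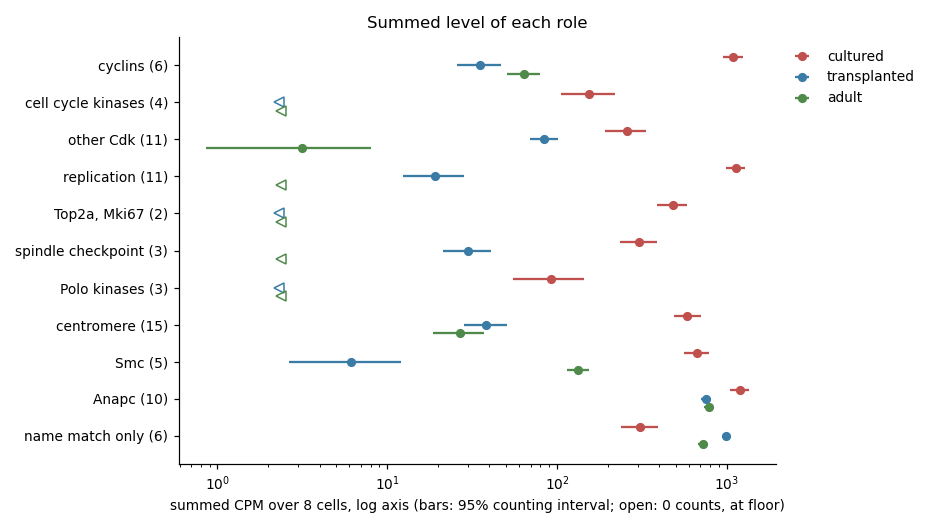
Summed CPM of each role (number of members in brackets) in each group, on a log axis, with 95% counting intervals; open triangles mark 0 counts, drawn at the group's floor. Cyclins, replication genes, Top2a with Mki67 and the spindle checkpoint lie far to the right in culture, the anaphase-promoting complex lies close in all 3 groups, and the genes matched by name alone lie lowest in culture. Cultured cells F, G and H are included in the sums.

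Over all roles, the members past 2-fold were counted beside the same count over all listed genes. Measured means at least 10 counts over both groups, and called means at least 2-fold, bounds included. Of 47 measured members, 37 were lower in transplanted than in cultured cells (78.7%), where 64.0% of the 4958 measured genes were, and 6 were higher (12.8%), where 22.5% were. The 6 were Anapc11, Anapc13, Anapc16, Aurkaip1, Cdk5rap3 and Cdk7. The members' median log2 ratio was -6.00, or -4.78 with zeros at the floor, beside -5.63 and -4.53 over all measured genes. For adult against cultured cells, 36 of 46 measured members were lower (78.3%, all genes 62.1%) and 5 were higher (10.9%, all genes 23.0%), these being Anapc13, Anapc16, Anapc5, Anapc7 and Aurkaip1. That median was -6.10, or -4.84 with zeros at the floor, beside -3.85 and -4.04. Both comparisons share the cultured cells. A member seen in culture alone with 10 counts is lower elsewhere by construction, while one seen elsewhere needs more to pass the cultured floor, so these counts describe the members and support nothing further. Without cultured F, G and H, 24 of 34 measured members were lower in transplanted cells, where 56.2% of all genes were, and 6 were higher, where 26.9% were. In adult cells 20 of 32 were lower, where 54.1% of all genes were, and 4 were higher, where 25.8% were. Anapc5 was then 1.41-fold higher and no longer past 2-fold.

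Adult and transplanted cells both came from hearts. Of 20 members measured between them, 6 were higher in adult cells (Anapc4, Anapc5, Anapc7, Cdk2ap1, Cenpo and Smc5), where 44.3% of the 3501 measured genes were. Another 9 were lower (Anapc11, Anapc15, Bub3, Cdk11b, Cdk2ap2, Cdk5rap3, Cdk7, Cenpf and Pcna), where 34.8% were. The median log2 ratio was -0.59 against 0.37 over all genes, and it ran from -3.23 without adult G to -0.11 without transplanted H. The 6 had their adult counts in 1 cell each, apart from Cdk2ap1, which had 9 and 2 counts in adult B and C.

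**Figure D4:**
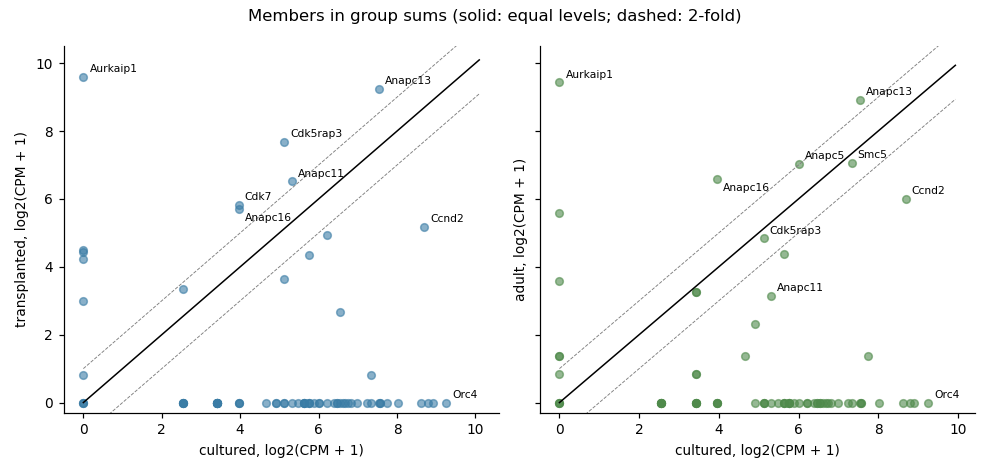
Each point is a member, with its cultured level (x) against its transplanted (left) or adult level (right) as log2(CPM + 1) of group sums; the solid line marks equal levels and the dashed lines 2-fold. Most members lie on the lower axis at 0 counts outside culture, Anapc13 lies above the line in both panels, and Aurkaip1 sits at 0 in culture.

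Exon length here is the union of a gene's annotated exons and not the length of a transcript. It moved with the calls against cultured cells over all genes, and among members between transplanted and cultured cells. Members lower in transplanted than in cultured cells had a median exon length of 5634 bp against 3759 bp for the higher ones, and over all genes the medians were 5828 and 2879 bp. For adult against cultured cells the members' medians were 5133.5 bp for the lower and 4890 bp for the 5 higher ones. Over all genes they were 5858 and 3079.5 bp. For adult against transplanted cells the members' medians were 3812 bp for the lower and 6096 bp for the higher ones. Over all genes those were 3829.5 and 4286 bp. The part of length in the result was not tested.

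Within the cultured group, the member share was highest in cells E, F and G. Cell E held 295 member counts from 17 genes, led by Top2a (74), Orc4 (49), Bub1b (33), Anapc1 (25), Smc6 (19) and Mki67 (18), with Mcm4, Mcm3 and Cenpu at 12, 10 and 11. Cell F held 285 from 20 genes, led by Ccnb1 (86), Cenpc1 (37), Cdk4 (26), Ccnd2 (24) and Smc4 (21). Cell G held 153 from 11 genes, led by Ccnd2 (47), Cenpi (19), Smc4 (18), Ccna2 (17) and Bub1 (15). Cell B held 322 counts from 18 genes, but at a total of 60789 these were 0.530% of its reads, and they lay on Orc4 (68), Anapc1 (59), Mcm3ap (32), Orc2 (31) and Anapc2 (21), with no cyclin, Top2a or Mki67. Cell D and cell H held 46 and 40 counts from 4 and 3 genes. Cells A and C held 88 and 64 counts from 19 and 16 genes, thinly spread, and cell A had 5 of the 6 cyclins.

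A further 59 listed genes of replication and mitosis that the symbol rule leaves out gave shares of 0.399, 0.380, 0.133, 0.316, 1.32, 1.03, 0.388 and 0.0712% in cultured cells A to H. Cell E had counts for 26 of them and cell F for 11. Those of E included the mitosis genes Ckap5 (47) and Ndc80 (21). They also included the replication genes Pola1 (22), Cdc45 (15), Wdhd1 (14), Chaf1b (12) and Rrm2 (11). Those of F included Rpa3 (63), Aspm (48) and Rrm2 (31). The cells highest for members, E and F, were also the highest for these genes. Cell E had 1254 counts of Ttn and cardiomyocyte markers at 8.68%, while F, G and H had markers at 0.465% and below, and the part of these differences in the result was not tested. Of the 7 listed fibroblast genes E and G had 0 counts and F had 14, and the endothelial list had 1 count in all cultured cells. Smooth muscle and pericyte genes gave 0 to 0.0302% of a cultured cell's counts, and leukocyte genes gave 27 counts in cells B and C. The pluripotency list gave 25 counts in F, 2 in E, 1 in A and 1 in G. Of those in F, 24 were Sox2, which had counts in all 8 transplanted and all 8 adult cells. Sox2 stood at 126 CPM in cultured, 163 in transplanted and 1824 in adult cells, with 1704 of its 2319 adult counts in adult A. The noncoding RNA Rpph1 took 4.96, 2.51, 5.48 and 5.30% of counts in cells B to E and at most 0.0574% in the other 4.

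**Figure D5:**
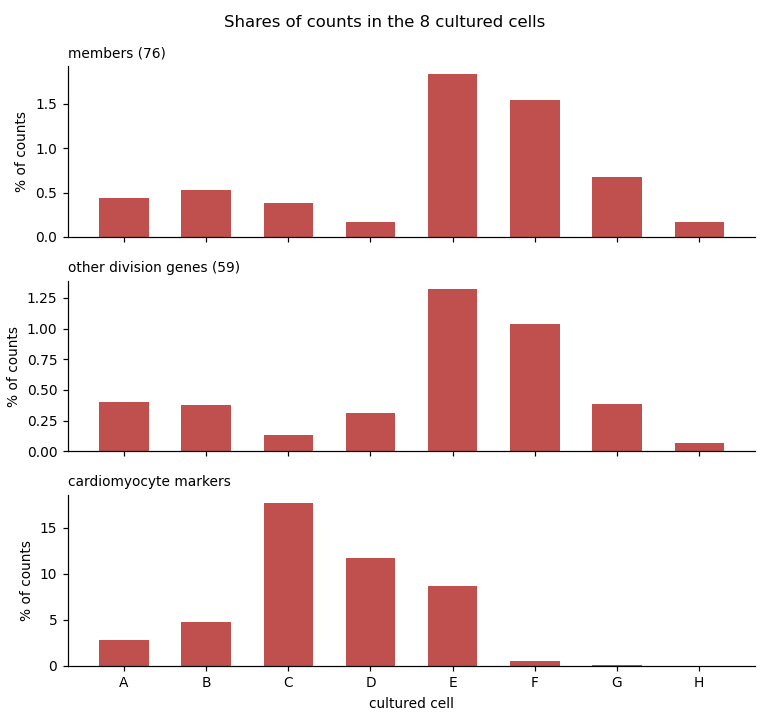
Share of counts, in percent, in each of the 8 cultured cells for the 76 members (top), 59 other division genes (middle) and 14 cardiomyocyte markers (bottom); each panel has its own axis from 0. Cells E and F stand highest in the upper panels, E with 8.68% of counts in cardiomyocyte markers and F with 0.465%.

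The other genes of these pathways were taken from lists. Their counts are to be read beside the shares of all measured genes, 64.0% lower and 22.5% higher in transplanted and 62.1% lower and 23.0% higher in adult than in cultured cells. Of 29 listed replication genes, 16 were measured between transplanted and cultured cells, 13 of them lower (81.2%) and 2 higher (12.5%), and of 14 measured between adult and cultured cells 13 were lower (92.9%) and 1 higher. Of 30 mitosis genes, 14 were measured in each comparison, with 13 lower (92.9%) and 1 higher in both. The higher ones were Gmnn in both comparisons, Rfc1 in transplanted cells and Pttg1 in both. Rfc1, which loads the Pcna clamp, had 5 counts in cultured E, 216 in transplanted B and none elsewhere. Gmnn (geminin, which blocks re-licensing of origins) had 0 counts in culture, 108, 80, 59 and 33 in transplanted A, B, C and G and 110 and 12 in adult B and G, at least 14.8-fold above the cultured floor in transplanted cells. Pttg1 (securin, which holds separase until anaphase) had 0 counts in culture, 3, 204, 110, 2 and 98 in transplanted B, E, F, G and H and 222, 99, 224 and 2 in adult B, C, E and F. It was at least 22.0-fold and 29.6-fold above the cultured floor, 13.2-fold without transplanted E and 19.4-fold without adult B. Rpa3, Wdhd1, Zw10 and Ckap5 had 78, 76, 64 and 58 counts in culture and, apart from 8 of Rpa3 in adult G, none elsewhere.

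Other genes around cohesin, condensin and the Smc5/6 complex were also split. Of 14 measured between transplanted and cultured cells, 10 were lower (71.4%, all genes 64.0%) and 3 higher (21.4%, all genes 22.5%), close to the background. For adult against cultured cells 10 of 12 were lower (83.3%, all genes 62.1%) and 1 higher. Ncapd3, a condensin II subunit, had 115 counts in culture, 91 of them in cell D, and none elsewhere. Nsmce1, a ubiquitin ligase subunit of the Smc5/6 complex, had 1 count in culture, 74, 143, 115 and 109 in transplanted B, C, G and H and 106, 44 and 97 in adult B, C and F. It was 69.8-fold higher in transplanted cells (lower bound of the interval 12.5), and at least 21.2-fold without cultured F. Wapl, which opens cohesin rings, had 65, 91 and 466 counts in cultured, transplanted and adult cells, or 315, 69.8 and 366 CPM. It was 4.51-fold lower in transplanted than in cultured cells (3.23 to 6.27), and 1.79-fold lower without cultured G. In adult cells it was 1.16-fold higher than in culture on 407 counts in adult F. Without adult F it was 6.21-fold lower, and without cultured G 2.92-fold higher. Among 4 further listed subunits of the anaphase-promoting complex, Cdc26 was 5.02-fold higher in transplanted cells on 127 counts in cell D, with none in that group without it, and Cdc16 and Cdc27 had 26 and 16 counts in culture and none elsewhere.

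Brakes on division, such as Cdk inhibitors and the retinoblastoma family, were near the background: 7 of 10 measured were lower in transplanted cells (all genes 64.0%) and 2 higher (22.5%). In adult cells 6 of 9 were lower (66.7%, all genes 62.1%) and 2 higher (22.2%, all genes 23.0%). Cdkn2c, an inhibitor of Cdk4 and Cdk6, had its 80 counts in cultured H, the cell with 3 members. Btg2, an antiproliferative gene, had 5 counts in cultured A, 178, 1 and 394 in transplanted C, G and H and 43, 37 and 2 in adult B, C and D, or 18.1-fold higher in transplanted cells and 7.70-fold without H. Ccng1, a target of p53, was 2.32-fold higher in adult than in cultured cells on 1721 counts in adult A, 14.9-fold lower without that cell and 4.54-fold higher without cultured G. Of the E2F, Myc and related drivers, 5 were measured in each comparison with culture, 4 of them lower (80%, all genes 64.0 and 62.1%) and none higher. Skp1a and Cul1, of the SCF ubiquitin ligase, had 93 and 99 counts in culture, and Cul1 had none elsewhere.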

How the data were processed

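Single cells were sequenced over the length of transcripts after template switching and amplification, per the labels' protocols. The deposited table holds whole-number read counts, made by the authors, for each gene in every cell. Per the submitters' processing notes the tools were TopHat2 2.1.0, HTSeq and DESeq2 and the build was mm10, also for rat cells, and which of them made the counts is not given in the sources used here. All 24 columns were used. Counts were summed over each group's 8 cells and divided by its total. Intervals are exact at 95% (Poisson for a level, conditional binomial for a ratio, Clopper-Pearson for a share). Medians used a pseudocount of 1 CPM. Every member was named, with cell values where it had 30 counts or 4 cells of a group, and the 3 leading genes of each list. Members, lists and alternatives were chosen with earlier results of these data known. Cells of a group differed by more than sampling noise. Positions and exon lengths came from GENCODE M21 (mm10), where 99.3% of symbols matched. Ratios and intervals were tested on simulated data with counting noise alone. The simulation held no variation between cells, so it does not cover that variation. Alternatives were TMM factors of edgeR 4.0.16, size factors of DESeq2 1.42.0, equal cell weights, thinning, other minimums, folds and pseudocounts, and each cell left out. Leaving out cultured F, G and H was added after seeing the data.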

Additional observations from a re-analysis of the deposited data

Results flagged for a closer look

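Aurkaip1 reached 3305 CPM in transplanted cell E, and its gap to the next cell, divided by the range of the 8 cells, was above Dixon's 95% critical value. The check covered 16 sets of 8 cells: the member share and the number of members in each group, and each named member with counts in at least 4 cells of a group. Chance flags about 1 in 20 such sets. Members in fewer cells were not checked, since most of their cells are at 0. Without that cell Aurkaip1 was at least 22.3-fold above the cultured floor.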

How the results depend on the processing

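No paired analysis was possible because the letters only name cells and nothing links a cell of one group to a cell of another. TMM factors raised transplanted and adult levels by 0.92 (log2) relative to cultured ones, and DESeq2 size factors by 0.22 and 0.14. Of all measured genes 29.0% were then higher and 60.4% lower in transplanted than in cultured cells under TMM, and members higher there numbered 10. Median log2 ratios of members under TMM were -5.40 for transplanted and -5.49 for adult against cultured cells. With a minimum of 20 counts, 22 and 18 members were lower in these comparisons, with medians of -6.61 and -6.75. With no minimum the medians were -4.91 and -5.13, and with a pseudocount of 5 CPM they were -3.77 and -3.86. Past 4-fold, 2 members were higher in each. Without cultured F, G and H, 24 of 34 and 20 of 32 measured members were lower, where 56.2% and 54.1% of all genes were. Thinned to the shallowest cell, 23 members were lower in adult than in cultured cells, 11 members had a count in adult cells, and against transplanted cells 3 were higher in adult cells and 1 lower. Shares over all genes were not computed for the 20-count minimum, the 4-fold cut or thinning. The members called at those settings thus have no background beside them. The median of adult against transplanted cells turned to 0.23 under thinning and to 0.82 with no minimum, the latter because members with few counts enter. Leaving out 1 cell at a time moved that median between -3.23 and -0.11. The cultured member share was 0.718% with equal cell weights, 0.713% thinned, 0.695% with Rn45s and Rpph1 out of the total and 0.577% without cells F, G and H. The transplanted share was 0.178% with equal weights and 0.0969% without genes matched by name alone, and the adult share was 0.193% thinned and 0.101% without those genes. Over cells left out one by one, the shares ran from 0.525 to 0.699%, 0.151 to 0.214% and 0.152 to 0.201% in cultured, transplanted and adult cells. Log2 ratios of single members that changed sign did so on 1 cell or a small value. For transplanted against cultured cells, leaving out cells moved Bub3 between -4.80 and 0.89, Cdk5rap3 between -3.44 and 3.64 and Cdk7 between -0.49 and 3.41. For adult against cultured cells it moved Anapc4 between -4.22 and 1.52, Anapc5 between -4.60 and 2.30, Cdk5rap3 between -3.64 and 0.75 and Smc5 between -5.87 and 1.75. For adult against transplanted cells it moved Anapc13 between -0.67 and 0.23, Anapc16 between -0.61 and 1.91, Aurkaip1 between -0.66 and 1.09 and Cdk5rap3 between -6.22 and 3.14. Under other settings adult against cultured cells gave 0.07 for Anapc4 with equal weights, 0.62 for Cdk5rap3 and 0.64 for Smc5 under TMM and 0.07 for Smc5 thinned, and adult against transplanted cells gave 0.01 for Anapc13 with equal weights. Apart from the settings named here as the construction (fewer genes, cells or counts), the cause was not tested.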
